A study of Mus musculus with 24 samples.

Results

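The genes described here are 9 of the 55469 genes in the expression tables. They were chosen by name, as genes of phenylalanine and tyrosine metabolism, and were found through their Ensembl identifiers. Pcbd1, Qdpr and Gch1 make or recycle tetrahydrobiopterin, Tat, Hpd, Hgd and Fah break tyrosine down, and Th and Ddc make catecholamines. RNA was sequenced from brain and liver of male mice on the C57BL/6N background, 10 weeks old. They were wild type (WT) or homozygous for a CRISPR-Cas9 deletion in the family that encodes the transfer RNA for phenylalanine, with tRNA-Phe-1-1 deleted in the first line, tRNA-Phe-2-1 in the second and tRNA-Phe-3-1 in the last. Each knockout line carries a deletion of the named gene and keeps the rest of the family. The 3 lines were compared with the same WT mice. The study describes its WT mice as age- and littermate-matched, and also states that its animals came from different litters. Each of the 4 genotypes had 3 replicates (A, B and C) per tissue, 24 samples in all. By the study's methods the RNA came from separate mice, so the p-values measure the spread between mice of a genotype together with that of the preparation.

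Tetrahydrobiopterin is the cofactor of the enzymes that add a hydroxyl group to aromatic amino acids. GTP cyclohydrolase (Gch1) starts its synthesis, and pterin-4a-carbinolamine dehydratase (Pcbd1) and dihydropteridine reductase (Qdpr) return the used cofactor to its active form. Tyrosine that is not built into protein is broken down mostly in hepatocytes, where tyrosine aminotransferase (Tat), a classical glucocorticoid-induced liver enzyme, is followed by 4-hydroxyphenylpyruvate dioxygenase (Hpd), homogentisate dioxygenase (Hgd) and fumarylacetoacetase (Fah). In catecholamine neurons, tyrosine hydroxylase (Th) makes L-DOPA and aromatic L-amino acid decarboxylase (Ddc) turns it into dopamine. Ddc also makes serotonin in serotonin neurons and is present in liver and kidney.

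Values are normalised read counts, that is estimated reads divided by a size factor per sample. Depth ranged from 30365760 to 46225360 reads per brain sample and from 32276896 to 51584522 per liver sample. Differences between genotypes are log2 differences of normalised count + 1, given with their standard error (SE) and a p-value from limma adjusted over all genes tested in that tissue, and a gene is called where the adjusted p lies under 0.05. A mean of at least 10 normalised counts was needed for a test, which 8 of the 9 genes met in the liver and 7 in the brain. Fewer cells of a type and less RNA per cell cannot be told apart in these bulk samples.

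Per length of transcript, as RPKM (reads divided by transcript length and library size), the tyrosine breakdown enzymes led in the liver. In WT liver, Hpd had the highest level at 811 ± 65.8 RPKM (SD, n = 3) and Tat followed at 379 ± 11. The levels of Hgd (239 ± 24.3), Fah (223 ± 5.58) and Qdpr (222 ± 23.6) overlapped among the WT samples, and Pcbd1 came next at 156 ± 10.9. Gch1 (39.2 ± 8.53 RPKM) and Ddc (33.7 ± 1.58) overlapped too. Th had 1 read in the 12 liver libraries together and was at 0 in 11 of them, where 3 reads per library, the limit that a count of 0 allows, would be 2.40 to 3.89 normalised counts. The brain had another order. Qdpr led there at 74.6 ± 9.63 RPKM in WT, followed by Fah at 7.09 ± 0.783, Pcbd1 at 2.33 ± 0.824 and Ddc at 1.41 ± 0.365. The WT ranges of Gch1 (mean 0.454 RPKM), Th (0.336) and Hpd (0.321) overlapped, and Tat and Hgd had 96 and 47 reads in all 12 brain libraries. The tables of the tissues were normalised separately, and the annotated coding transcripts of Th range from 1012 to 5009 bases and those of Ddc from 799 to 5029, so their place in these orders depends on the transcript used for the length. Within a genotype the liver enzymes Pcbd1, Fah and Hpd varied least, with an SD of 0.08, 0.09 and 0.09 on the log2 scale, and Tat most, with 0.43. In the brain the SD within a genotype was 1.15 for Hpd and 1.06 for Th against 0.18 for Fah.

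**Figure D1:**
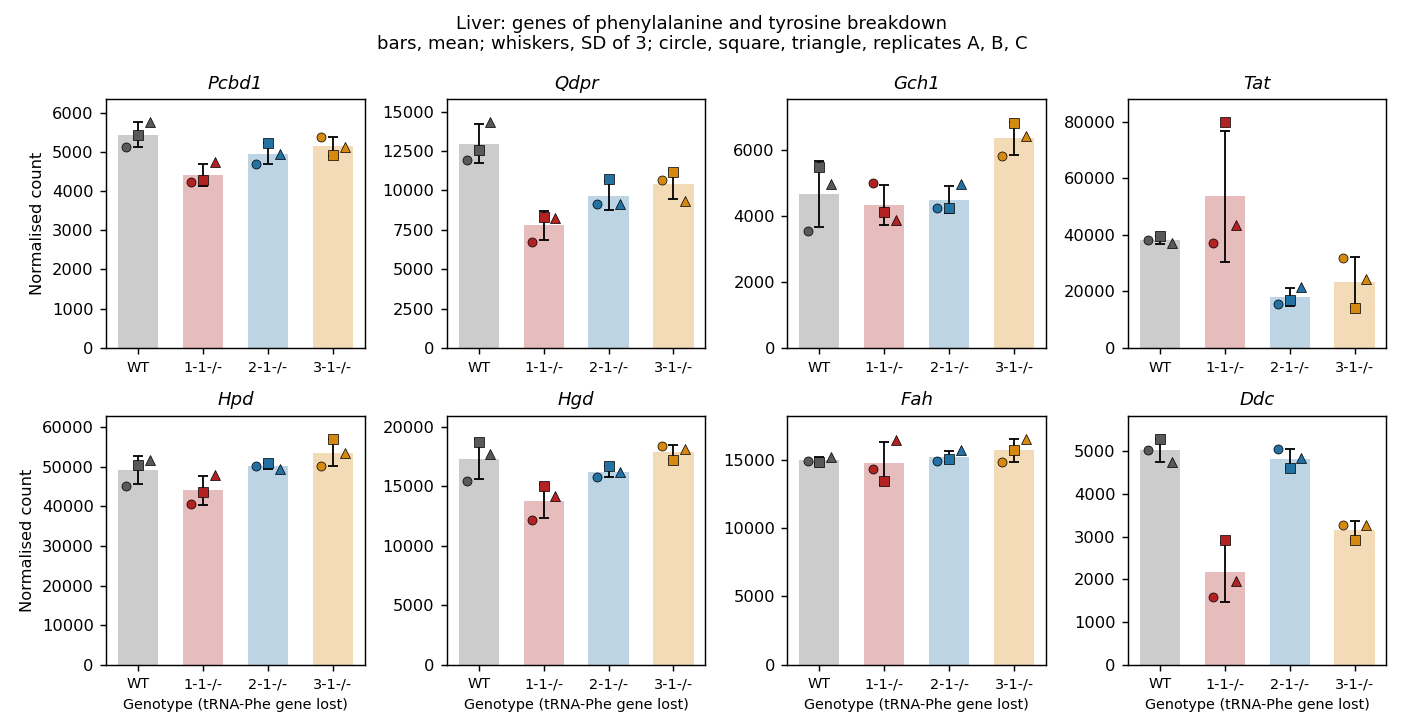
Normalised counts of the 8 genes tested in the liver by genotype. Bars give the mean of 3 replicates, whiskers the SD, and the circle, square and triangle replicates A, B and C. Ddc and Qdpr were lowest in tRNA-Phe-1-1-/-, with means of 2161 and 7775 against 5027 and 12949 in WT, and Tat was low in tRNA-Phe-2-1-/-, with 17903 against 38273.

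Across the 4 liver genotypes, Ddc (moderated F-test in limma, adjusted p = 0.00158), Qdpr (0.00729) and Tat (0.0149) differed, 3 of the 8 genes tested, while 17.0% of all 15856 genes tested in the liver did. Hgd (0.0512), Gch1 (0.0628) and Pcbd1 (0.0713) were close to the threshold, and Hpd (0.190) and Fah (0.798) were far from it. For the 3 genes that passed the F-test, the 250 bases before their RefSeq starts are shown, 5′ to 3′ on the gene's strand (GRCm38.p6). Capitals mark matches on either strand to the CCAAT box (CCAAT, read as ATTGG on the other strand), the GC box (GGGCGG) and the TATA box (TATAAA, read as TTTATA on the other strand).
Qdpr, chr5:45450230-45450479, minus strand: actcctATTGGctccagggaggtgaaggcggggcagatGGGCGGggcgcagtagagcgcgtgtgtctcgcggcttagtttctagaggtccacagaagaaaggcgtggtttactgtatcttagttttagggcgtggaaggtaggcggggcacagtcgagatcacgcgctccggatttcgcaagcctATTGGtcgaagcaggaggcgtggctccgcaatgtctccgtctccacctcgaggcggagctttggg
Tat, chr8:109990186-109990435, plus strand: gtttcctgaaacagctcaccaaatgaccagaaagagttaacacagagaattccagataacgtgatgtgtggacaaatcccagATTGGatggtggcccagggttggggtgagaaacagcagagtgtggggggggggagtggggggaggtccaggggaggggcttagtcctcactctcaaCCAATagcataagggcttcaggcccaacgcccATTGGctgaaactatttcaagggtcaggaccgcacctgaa
Ddc, distal start, chr11:11898145-11898394, minus strand: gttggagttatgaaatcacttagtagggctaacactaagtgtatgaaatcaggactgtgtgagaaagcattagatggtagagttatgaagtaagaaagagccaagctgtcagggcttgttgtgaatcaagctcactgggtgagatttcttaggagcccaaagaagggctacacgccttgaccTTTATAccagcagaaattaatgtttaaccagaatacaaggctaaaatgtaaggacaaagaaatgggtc
Ddc, proximal start, chr11:11890409-11890658, minus strand: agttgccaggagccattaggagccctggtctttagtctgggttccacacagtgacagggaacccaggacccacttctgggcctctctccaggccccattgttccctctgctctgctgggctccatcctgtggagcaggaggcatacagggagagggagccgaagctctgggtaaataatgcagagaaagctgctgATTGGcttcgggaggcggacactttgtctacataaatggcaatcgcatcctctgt
The Qdpr window has CCAAT boxes at -244 and -65 and a GC box at -212, counted as bases before the start. The Tat window has CCAAT boxes at -168, -72 and -40. It lies inside the RefSeq span of Tat (chr8:109986078-109999804), and the 250 bases before the outer end of that span, 109986078, were not searched. Of the pair of Ddc windows, the distal holds a TATA box at -68 and the proximal a CCAAT box at -55. G and C made up 59.6% of the Qdpr window, 53.6% of that of Tat, 40.8% of the distal and 56.0% of the proximal Ddc window, and the median over 32851 RefSeq windows of this length was 52.4%. CCAAT was found in 33.8% of those windows, GGGCGG in 32.7% and TATAAA in 12.4%. Among the further motifs searched on both strands in the 10 windows of the 9 genes were the core of the glucocorticoid receptor element (TGTTCT, in 16.1% of all windows), the E-box (CACGTG, 6.02%), the D-box (TTATGTAA, 0.819%) and the cAMP response element (TGACGTCA, 1.55%). Of these, TGACGTCA was found in the Th window, at -45, and the other 3 named here had no match in the 10 windows. A match is a string of letters and not a measured site, and sequence beyond these windows was not searched.

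The liver of tRNA-Phe-1-1-/- mice had less RNA of Ddc, of both enzymes that recycle tetrahydrobiopterin (Qdpr and Pcbd1) and of Hgd than WT liver. These 4 of 8 genes fell, none of the 8 rose, and 17.3% of all genes tested were called in this comparison (8.27% higher and 9.08% lower). The median difference of the 8 genes was -0.23 and that of all genes tested -0.01 on the log2 scale. The same 4 genes had no overlap between the groups, where 34.8% of all genes had none.

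Ddc (ENSMUSG00000020182.16, chr11:11814101-11898144), the decarboxylase of aromatic amino acids, had the largest difference of the 8 genes. Its normalised counts were 5029, 5297 and 4755 in WT replicates A, B and C and 1593, 2929 and 1959.6 in tRNA-Phe-1-1-/-. Every knockout library lay below every WT library, with replicate B the nearest. The log2 difference was -1.26 ± 0.17 (SE, 95% interval -1.63 to -0.89, adjusted p = 0.00071), a 2.40-fold lower level. Qdpr (ENSMUSG00000015806.12, chr5:45434032-45450229), which reduces the oxidised cofactor, had 11961, 12546 and 14339 normalised counts in WT and 6742, 8320.4 and 8262 in tRNA-Phe-1-1-/-. The groups did not overlap, with replicate A the lowest knockout library. The difference was -0.74 ± 0.11 (-0.99 to -0.49, adjusted p = 0.00163), 1.67-fold lower. Pcbd1 (ENSMUSG00000020098.7, chr10:61089331-61094329), the dehydratase that acts before Qdpr in the recycling, had 5114, 5422 and 5757 normalised counts in WT and 4223, 4285 and 4741 in the knockout. Here too every knockout value was below every WT value, at a smaller distance. Its difference was -0.30 ± 0.08 (adjusted p = 0.0223), 1.23-fold lower. Gch1 (ENSMUSG00000037580.10, chr14:47153895-47189413), which makes the cofactor from GTP, had 3547, 5467 and 4969 normalised counts in WT and 5011, 4120.1 and 3873 in the knockout. The groups overlapped and the difference was -0.09 (-0.42 to 0.24, adjusted p = 0.734).

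Of the 4 enzymes that break tyrosine down, Hgd was called. Hgd (ENSMUSG00000022821.13, chr16:37579742-37632026), which opens the ring of homogentisate, had 15467, 18740.1 and 17735 normalised counts in WT and 12186, 14987 and 14144 in tRNA-Phe-1-1-/-. The highest knockout library, B, lay just below the lowest WT library, A. The difference was -0.33 ± 0.10 (-0.54 to -0.12, adjusted p = 0.0352), 1.26-fold lower. Tat (ENSMUSG00000001670.13, chr8:109986078-109999804), the aminotransferase of the entry step, had 38113, 39669 and 37038 normalised counts in WT and 37282, 79943 and 43574 in the knockout. Replicate B was about as high as both other knockout libraries together, and replicate A lay within the WT range. The difference, 0.40 ± 0.30 (-0.26 to 1.06), had an adjusted p of 0.393. Hpd (ENSMUSG00000029445.13, chr5:123171807-123182723), the dioxygenase after Tat, had 45103, 50553 and 51796 normalised counts in WT and 40663, 43564 and 47949 in the knockout, with overlapping groups and a difference of -0.16 (-0.37 to 0.05, adjusted p = 0.294). Fah (ENSMUSG00000030630.16, chr7:84585159-84605942), the last enzyme of the pathway, had 14903, 14788 and 15225 in WT and 14296, 13402 and 16450.2 in the knockout, again with overlap. Its difference was -0.03 with an interval of -0.22 to 0.16 (adjusted p = 0.846), so changes of either sign within these bounds remain compatible with the data. Without WT replicate B, WT replicate C or knockout replicate A, 2 genes were called in place of 4, Qdpr and Ddc. These 2 were called under all 22 alternative settings, Pcbd1 under 16 and Hgd under 11.

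**Figure D2:**
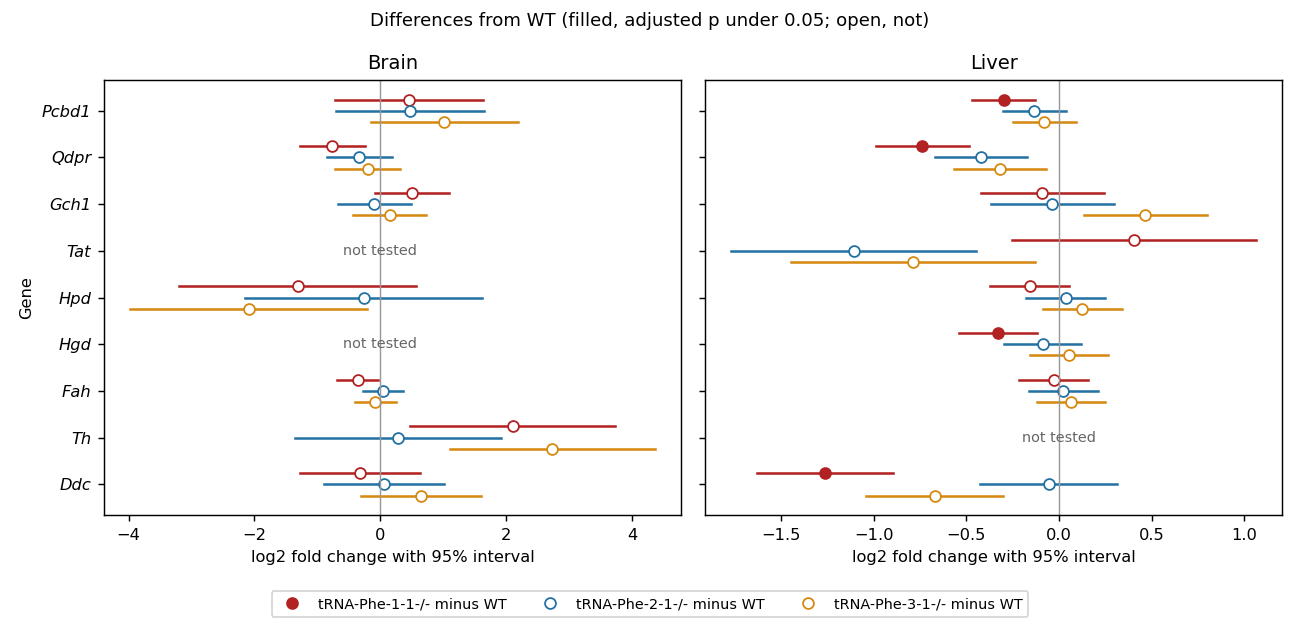
Log2 differences of the genes from WT for each knockout line, in liver and brain, as points with 95% intervals from limma. Filled points have an adjusted p under 0.05 and are those of Ddc, Qdpr, Hgd and Pcbd1 in the tRNA-Phe-1-1-/- liver.

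In the livers of the other lines, none of the 8 genes was called against WT, but several groups did not overlap. In tRNA-Phe-2-1-/-, where 0.132% of all genes were called, Tat had 15361, 16932 and 21416 normalised counts, all below the lowest WT library (37038). The log2 difference was -1.11 ± 0.30 (-1.77 to -0.45, adjusted p = 0.152). Qdpr had 9134, 10745 and 9113 normalised counts there, below the WT libraries as well, and the difference was -0.42 ± 0.11 (adjusted p = 0.151). These were the 2 of 8 genes without overlap, where 25.4% of all genes had none, and the 2 with an unadjusted p under 0.05 in limma (14.9% of all genes). DESeq2 on the recovered reads called both, edgeR called neither, and limma on these 2 groups alone called Tat. Ddc, of the 8 genes the most changed in the tRNA-Phe-1-1-/- liver, had 5059, 4605 and 4836 normalised counts in tRNA-Phe-2-1-/-, which overlapped WT (difference -0.06, -0.43 to 0.31, adjusted p = 0.903). Gch1, with 4253, 4239.8 and 4958, overlapped WT too.

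In tRNA-Phe-3-1-/-, where 0.883% of all genes were called, Ddc had 3268, 2915 and 3286 normalised counts, well below the lowest WT library (4755). The difference was -0.67 ± 0.17 (-1.04 to -0.30, adjusted p = 0.0888). It was called by DESeq2, and by limma without tRNA-Phe-1-1-/- replicate B, where 1 gene in place of 0 was called. Gch1 had 5822, 6803 and 6418 normalised counts, all above the highest WT library (5467), and a difference of 0.47 ± 0.15 (0.13 to 0.80, adjusted p = 0.164). Tat had 31650.3, 14211 and 24214 normalised counts and Qdpr 10667, 11142 and 9319. Both lay below WT in every library, with differences of -0.79 (adjusted p = 0.229) and -0.32 (adjusted p = 0.20). So 4 of 8 genes had no overlap with WT, against 19.9% of all genes, and 4 had an unadjusted p under 0.05 in limma, against 16.1%. edgeR called none of the 8 genes. In both lines Pcbd1, Hpd, Hgd and Fah overlapped WT, with means between 91.1% and 109% of the WT mean.

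The lines were also compared with each other, since a call in 1 line and not in another does not show a difference between them. In tRNA-Phe-1-1-/- set against the tRNA-Phe-2-1-/- line, 2 of 8 genes were called and 15.9% of all genes. Ddc was lower in tRNA-Phe-1-1-/- (-1.21 ± 0.17, adjusted p = 0.00106), 2.31-fold, and Tat was higher (1.51 ± 0.30, adjusted p = 0.00693), 2.86-fold. Neither gene overlapped between these lines, and both were called under all 22 alternative settings. The comparison of tRNA-Phe-1-1-/- with the tRNA-Phe-3-1-/- line called 5 of 8 genes and 16.1% of all genes. Tat was higher in tRNA-Phe-1-1-/- (1.19 ± 0.30, adjusted p = 0.0217), and Hgd (-0.38, adjusted p = 0.0203), Qdpr (-0.42, adjusted p = 0.0296), Gch1 (-0.56, adjusted p = 0.0302) and Ddc (-0.59, adjusted p = 0.035) were lower. The Ddc groups overlapped, since replicate B of tRNA-Phe-1-1-/- (2929 normalised counts) was above replicate B of tRNA-Phe-3-1-/- (2915). This count fell to 2 without tRNA-Phe-1-1-/- replicate A (Gch1, Tat), tRNA-Phe-3-1-/- replicate A (Gch1, Tat) or replicate C (Qdpr, Tat), to 3 without tRNA-Phe-1-1-/- replicate B (Qdpr, Hgd, Ddc) and to 1 without tRNA-Phe-3-1-/- replicate B (Hgd). Without tRNA-Phe-2-1-/- replicate B or C it fell to 4, with Ddc lost. Without tRNA-Phe-1-1-/- replicate C it stayed at 5, with Pcbd1 and Hpd in place of Gch1 and Ddc. Ddc was called under 10 of the 22 alternative settings of this comparison. In tRNA-Phe-2-1-/- set against the tRNA-Phe-3-1-/- line, 0 of 8 genes and 0.0% of all genes were called by limma, and edgeR and DESeq2 called none of the 8 either. At an unadjusted p under 0.05 in limma there were 2 (6.68% of all genes), Ddc (0.62, higher in tRNA-Phe-2-1-/-, adjusted p = 0.644) and Gch1 (-0.50, adjusted p = 0.644).

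Other gene groups moved in the same livers. In tRNA-Phe-1-1-/- against WT, 6 of 8 clock genes in phase with Dbp rose (median log2 difference 2.21), 5 of 5 in phase with Bmal1 fell (-1.08), 5 of 7 glucocorticoid-responsive genes rose (1.28) and 8 of 8 acute phase genes rose (2.61). None of these was called in the other lines. The summed normalised counts of the glucocorticoid-responsive genes were 3931 to 7293 in WT, 12099 to 20134 in tRNA-Phe-1-1-/-, 3267 to 4189.7 in tRNA-Phe-2-1-/- and 3607 to 4340.5 in tRNA-Phe-3-1-/-. The highest sum belonged to tRNA-Phe-1-1-/- replicate B, which also had the highest Tat, and the sums of both lines with low Tat overlapped the lower end of the WT range. The acute phase sums were 230954 to 247195 in WT and 398134 to 716402 in tRNA-Phe-1-1-/-, again highest in replicate B. The clock genes in phase with Dbp summed to 3454 to 5469 in WT, 10092 to 22202 in tRNA-Phe-1-1-/-, 3717 to 8322 in tRNA-Phe-2-1-/- and 6171 to 15119 in tRNA-Phe-3-1-/-. Within tRNA-Phe-1-1-/-, replicate B, with the highest Tat, had the lowest Dbp (853 normalised counts against 2776 and 3069) and the highest Bmal1 (466 against 98.8 and 101). Tat in tRNA-Phe-3-1-/- was highest in replicate A, with 170 of Dbp, and lowest in replicate B, with 2173. The tRNA-Phe-2-1-/- line had the other order, with its highest Tat and highest Dbp (383) both in replicate C. None of 7 hepatocyte markers was called in any line. Their sums were 3308668 to 3946941 in WT and lower, without overlap, in tRNA-Phe-1-1-/- (2758872 to 3116908). Alb makes up a large part of these sums. It had 1308113 to 1786457 normalised counts in tRNA-Phe-1-1-/- and 1433464 to 1687034 in tRNA-Phe-2-1-/-, both below WT (1834565 to 2409408). In tRNA-Phe-3-1-/- it had 2008874 to 2477751, which overlapped WT. Of 6 markers of periportal hepatocytes, 1 was called higher and 1 lower in tRNA-Phe-1-1-/-. They summed to 92763 to 111309 in WT and 141525 to 176850.1 in tRNA-Phe-1-1-/-, without overlap. Markers of pericentral hepatocytes (6 genes) summed to 95146 to 138701 in WT and 100053 to 212876 in tRNA-Phe-1-1-/-, with overlap. Their sums were 188937 to 216718 in tRNA-Phe-2-1-/-, above WT, and 117391 to 231714 in tRNA-Phe-3-1-/-, with overlap. The study's histology describes centrilobular congestion and necrosis in livers of the first line, and livers like those of controls in the other lines. The part of time of day, of glucocorticoid or inflammatory state and of cell content in the differences of Ddc, Qdpr, Pcbd1, Hgd and Tat was not tested.

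Across the 12 liver samples, Zfp784 was among the protein-coding genes most like Ddc in log2 level (Pearson r = 0.951). Those most like Qdpr were Gcat (0.973) and the fatty acid elongase Elovl5 (0.972), and those most like Tat were Cdhr5 (0.957) and the urea cycle enzyme Arg1 (0.948). These are among the highest of 11353 genes compared, over samples that share their genotype groups, and are given as a description.

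Beyond the 9 genes, 27 further genes of the same pathways were examined, of which 17 were tested in the liver. In tRNA-Phe-1-1-/- against WT, 4 of the 17 fell and none rose, where 9.08% of all genes fell and 8.27% rose, and in the other lines none was called. Got2, an aspartate aminotransferase that also accepts aromatic amino acids, had a mean of 16019 ± 388 normalised counts in WT (SD, n = 3) and 12865 ± 1277 in the knockout (-0.32 ± 0.08, adjusted p = 0.0215). Mif, which has tautomerase activity toward phenylpyruvate, had 2349 ± 118 and 1704 ± 70.5 (-0.46 ± 0.11, adjusted p = 0.0126). These were 2 of 5 further tyrosine degradation genes. Of 4 catecholamine genes tested, Maob, a monoamine oxidase, fell from 4168 ± 481 to 2506 ± 142 (-0.73 ± 0.10, adjusted p = 0.000656). Of 2 tetrahydrobiopterin-dependent enzymes tested, Agmo, the alkylglycerol monooxygenase, fell from 2348 ± 81.9 to 1626 ± 398 (-0.56 ± 0.15, adjusted p = 0.0269). None of 6 further genes of tetrahydrobiopterin synthesis, recycling and regulation was called against WT in any line. Of 16 enzymes that break down other amino acids, 8 fell and none rose in tRNA-Phe-1-1-/-, beside the same 9.08% and 8.27% of all genes. Those that fell included Aldh4a1 of proline breakdown (-0.68, adjusted p = 0.0017) and Ftcd (-0.77, adjusted p = 0.00192), Amdhd1 (-1.08, adjusted p = 0.00206) and Uroc1 (-0.71, adjusted p = 0.00466) of histidine breakdown. In tRNA-Phe-3-1-/-, 1 of the 16 was called, Tdo2 (named after its values were seen), which starts tryptophan breakdown and was higher (0.53, adjusted p = 0.0392).

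In the brain no comparison called any of the 7 genes tested, and the F-test over the 4 genotypes gave an adjusted p of 0.155 or more (lowest for Th, with 0.634% of all genes called). The share of all 19228 genes called against WT was 1.05% for tRNA-Phe-1-1-/-, 0.0% for tRNA-Phe-2-1-/- and 0.0% for tRNA-Phe-3-1-/-. Between the lines it was 0.53% for tRNA-Phe-1-1-/- set against the tRNA-Phe-2-1-/- line, 2.11% when it was set against the tRNA-Phe-3-1-/- line and 0.0% for the remaining pair. At an unadjusted p under 0.05, limma gave 3 of the 7 genes in tRNA-Phe-1-1-/- against WT (Qdpr, Fah, Th), 0 in tRNA-Phe-2-1-/- and 2 in the tRNA-Phe-3-1-/- line (Th, Hpd), where all genes gave 15.9%, 5.57% and 12.3%. edgeR called none of the 7 genes in any of the 6 comparisons. DESeq2 called 1 gene in each of 3 comparisons, Qdpr in tRNA-Phe-1-1-/- against WT and Th in tRNA-Phe-3-1-/- against WT and against tRNA-Phe-2-1-/-. Libraries of the brain stood apart in regional content, as markers chosen after their values were seen show. Tbx21, a transcription factor of olfactory bulb projection neurons, had 181 normalised counts in tRNA-Phe-1-1-/- replicate A and 106 in tRNA-Phe-3-1-/- replicate B, and 0 to 17.2 in the other libraries. Pmch, a neuropeptide of the lateral hypothalamus, had 5208 in tRNA-Phe-3-1-/- replicate C, 239 in tRNA-Phe-2-1-/- replicate C and 1.15 to 29.6 elsewhere. Ttr, a gene of the choroid plexus in brain, had 486 to 12103 in WT and 5.01 to 84.8 in tRNA-Phe-1-1-/-. It had 24.6, 46.9 and 49266 in tRNA-Phe-2-1-/- and 15098, 44.5 and 24451 in tRNA-Phe-3-1-/- (replicates A, B and C). Both tRNA-Phe-2-1-/- C and tRNA-Phe-3-1-/- A stay in all fits below. The brain differences from WT below are given with and without the 3 libraries tRNA-Phe-1-1-/- A and, of the last line, tRNA-Phe-3-1-/- B and C, a choice made after the data were seen, which leaves tRNA-Phe-3-1-/- with 1 sample that is assumed to vary like the rest. No gene of the 7 was called without them either.

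**Figure D3:**
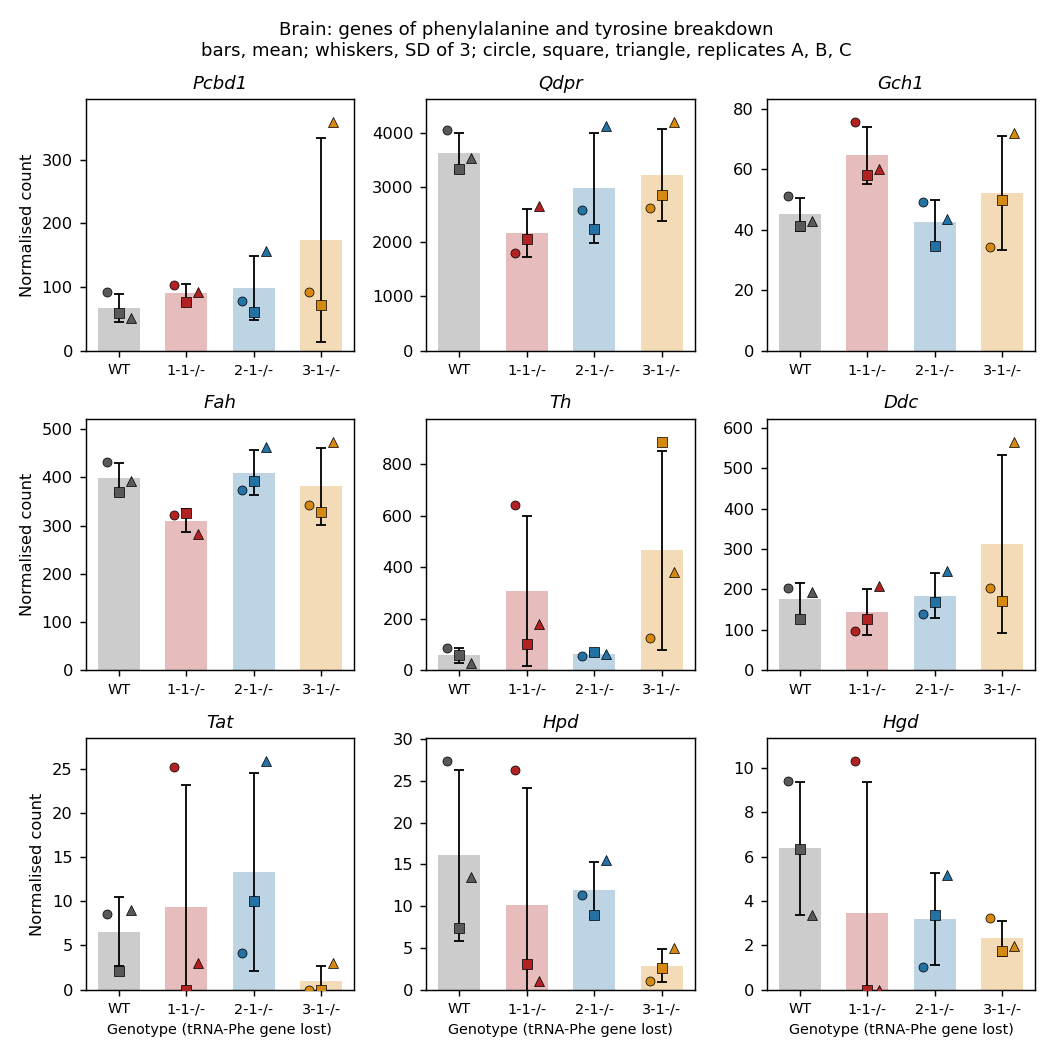
Normalised counts of the 9 genes in the brain by genotype, with bars for the mean of 3 replicates, whiskers for the SD and symbols for replicates A, B and C. The knockout libraries spread widely for Th, from 56.4 to 887 normalised counts, and Qdpr was lower in the 3 tRNA-Phe-1-1-/- libraries than in the 3 of WT.

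Qdpr, the gene of this group with the highest brain level, had 4047, 3342 and 3533 normalised counts in WT and 1798, 2044 and 2656 in tRNA-Phe-1-1-/-. The groups did not overlap, as in the liver, and the knockout mean was 59.5% of that of WT. The difference was -0.76 ± 0.24 (adjusted p = 0.151). In tRNA-Phe-2-1-/- Qdpr had 2586, 2237 and 4132 normalised counts and in tRNA-Phe-3-1-/- 2623, 2855 and 4197, with replicate C above WT in both lines and the other replicates below WT. Markers of glia had a like order. Their summed normalised counts (9 genes, none called) were 112301, 100131 and 95354 in WT, 44407, 62183 and 71089 in tRNA-Phe-1-1-/-, 68542, 56499 and 119991 in tRNA-Phe-2-1-/- and 67217, 83931 and 134016 in tRNA-Phe-3-1-/-. The part of glial content in the Qdpr values was not tested. Without the 3 libraries the Qdpr difference of tRNA-Phe-1-1-/- was -0.64 (adjusted p = 0.203).

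The other cofactor genes had low brain levels. Pcbd1 had 92.4, 59.2 and 50.8 normalised counts in WT, 103, 75.9 and 92.2 in tRNA-Phe-1-1-/-, 78.0, 61.4 and 156 in tRNA-Phe-2-1-/- and 91.6, 71.6 and 358 in tRNA-Phe-3-1-/-. The 4 groups overlapped apart from replicate C of tRNA-Phe-3-1-/-, the library with the highest Pmch, which lay far above the rest. The libraries with the most Ttr, tRNA-Phe-2-1-/- C and tRNA-Phe-3-1-/- C, also had the most Pcbd1. The part of choroid plexus content in the Pcbd1 values was not tested. The Pcbd1 difference from WT in tRNA-Phe-3-1-/- was 1.02 ± 0.53 (adjusted p = 0.478), while replicates A and B of that line lay within the WT range. Without the 3 libraries it was 0.48 (adjusted p = 0.835). Gch1 had 51.3, 41.2 and 42.9 normalised counts in WT and 75.6, 58.2 and 60.1 in tRNA-Phe-1-1-/-, all above WT (0.51 ± 0.27, adjusted p = 0.381, and 0.39 with adjusted p = 0.414 without the 3 libraries). In the other lines its values, 34.5 to 72.1, spanned those of WT. Fah, the breakdown enzyme with the highest brain level, had 433, 369 and 392 normalised counts in WT and 322, 325 and 283 in tRNA-Phe-1-1-/-, without overlap (-0.36 ± 0.15, adjusted p = 0.258, and -0.39 with adjusted p = 0.178 without the 3 libraries). Together with Th, 4 of the 7 genes did not overlap between tRNA-Phe-1-1-/- and WT brain, where 25.2% of all genes did not. In tRNA-Phe-2-1-/- there were 0 such genes (11.4% of all genes) and in tRNA-Phe-3-1-/- 2, Th and Hpd (16.4%). Among state genes, named after their values were seen, Fkbp5 had 586 to 658 normalised counts in WT brain. It had 1462 to 2239 in tRNA-Phe-1-1-/-, 685 to 825 in tRNA-Phe-2-1-/- and 714 to 1036 in tRNA-Phe-3-1-/-. Dbp had 1909 to 2407 in tRNA-Phe-1-1-/- against 1262 to 1602 in WT, and Bmal1 overlapped. The part of glucocorticoid state and time of day in the brain differences was not tested.

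Th (ENSMUSG00000000214.11, chr7:142892779-142899995), whose product sets the rate of catecholamine synthesis, ranged in the brain from 27.1 to 887 normalised counts. It had 84.7, 60.2 and 27.1 normalised counts in WT, 639, 101 and 178 in tRNA-Phe-1-1-/-, 56.4, 71.4 and 62.8 in tRNA-Phe-2-1-/- and 126, 887 and 381 in tRNA-Phe-3-1-/-. Every library of tRNA-Phe-1-1-/- and of the tRNA-Phe-3-1-/- line lay above every WT library, and tRNA-Phe-2-1-/- lay within the WT range. The differences from WT were 2.10 ± 0.74 in tRNA-Phe-1-1-/- (0.47 to 3.73, adjusted p = 0.198) and 2.73 ± 0.74 in tRNA-Phe-3-1-/- (lower bound 1.1, upper bound 4.36, adjusted p = 0.217). The highest values, 887 and 639, belonged to the 2 libraries with the highest Tbx21, and the third, 381, to the library with the highest Pmch. That library also had 573 normalised counts of Slc6a3, the dopamine transporter (also named after its values were seen), against 2.26 to 89.9 in the others. Olfactory bulb markers (5 genes, none called) summed to 1298 to 2143 in WT, to 4156, 1420.4 and 1311 in tRNA-Phe-1-1-/-, to 1845 to 2382 in tRNA-Phe-2-1-/- and to 2695, 4731 and 2009 in tRNA-Phe-3-1-/-. Markers of hypothalamic neurons (5 of 6 tested, none called) summed to 615, 31.4 and 8720.0 in tRNA-Phe-3-1-/- and to 8.02 to 299 in the other libraries. Without the 3 libraries the Th differences were 1.36 in tRNA-Phe-1-1-/- and 1.27 in tRNA-Phe-3-1-/-, where replicate A remained. The libraries kept still differed from WT in regional markers. Replicate A of tRNA-Phe-3-1-/- had 101 normalised counts of the hypothalamic marker Oxt (1.06 to 16.9 in WT), but 5.39 of Pmch (18.1 to 29.6 in WT). The olfactory bulb marker Doc2g had 134 there and 128 and 115 in tRNA-Phe-1-1-/- B and C, against 71.1 to 78.2 in WT. The part of regional content in the Th values was not tested.

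**Figure D4:**
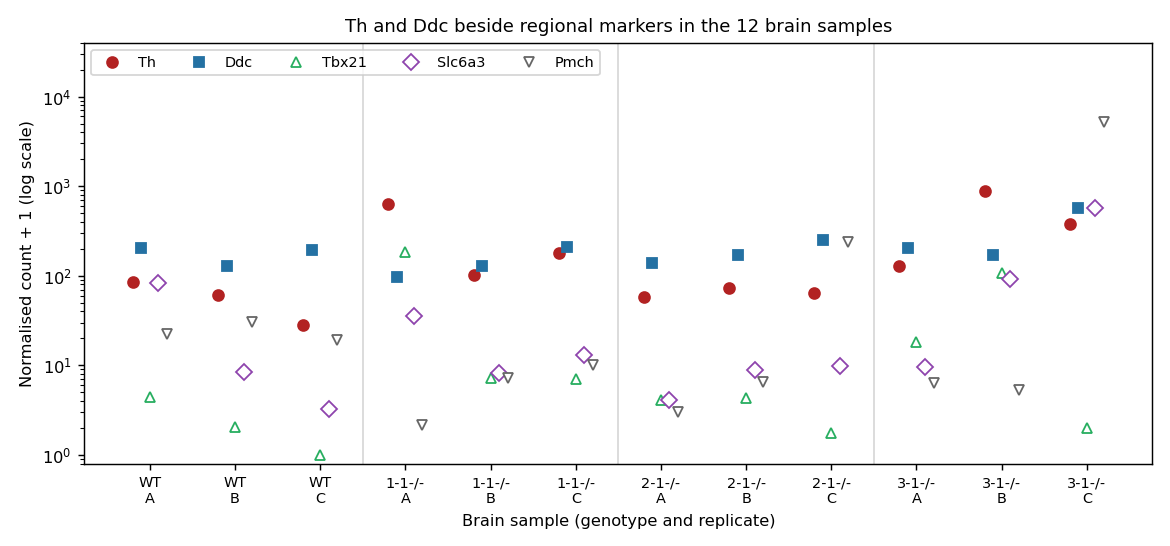
Normalised counts + 1 of Th and Ddc (filled) and of the regional markers Tbx21, Slc6a3 and Pmch (open) in each of the 12 brain libraries, on a log axis. Th peaks in tRNA-Phe-1-1-/- A (639) and tRNA-Phe-3-1-/- B (887), where Tbx21 peaks too, and Ddc peaks in tRNA-Phe-3-1-/- C (566), where Pmch and Slc6a3 peak.

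Ddc, which acts after Th, did not share the Th order in the brain. It had 204, 128 and 194 normalised counts in WT, 96.2, 128 and 208 in tRNA-Phe-1-1-/-, 138, 169 and 247 in tRNA-Phe-2-1-/- and 203, 170.2 and 566 in tRNA-Phe-3-1-/-. All groups overlapped with WT, and the library with 639 normalised counts of Th had the lowest Ddc. The highest Ddc was in tRNA-Phe-3-1-/- replicate C, beside its high Slc6a3 and Pmch. The Ddc difference from WT was 0.64 ± 0.43 in tRNA-Phe-3-1-/- (adjusted p = 0.586) and 0.24 without the 3 libraries (adjusted p = 0.909). The 2.40-fold lower Ddc of the tRNA-Phe-1-1-/- liver was thus not seen as separate groups in the brain of the same line, and the difference between the tissues was not tested.

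Hpd, Tat and Hgd, whose products act in hepatocytes, were near the floor of detection in the brain, where 3 reads are 2.22 to 3.44 normalised counts. Hpd had 27.4, 7.40 and 13.5 normalised counts in WT, 26.4, 3.12 and 1.00 in tRNA-Phe-1-1-/-, 11.3, 8.93 and 15.5 in tRNA-Phe-2-1-/- and 1.08, 2.62 and 4.94 in tRNA-Phe-3-1-/-. The tRNA-Phe-3-1-/- libraries lay below all of WT (-2.09 ± 0.86, adjusted p = 0.355). Tat reached 25.2 in tRNA-Phe-1-1-/- A and 25.8 in tRNA-Phe-2-1-/- C and was at 0 in 3 libraries, and Hgd stayed at 10.3 or below and was at 0 in 2. Alb, the hepatocyte gene for serum albumin (named after its values were seen), had 625, 227 and 140.0 normalised counts in WT, 851, 5.20 and 36.1 in tRNA-Phe-1-1-/-, 309.8, 599 and 877 in tRNA-Phe-2-1-/- and 3.23, 9.60 and 36.5 in tRNA-Phe-3-1-/-. The 2 libraries with the most Alb had the most Tat, and tRNA-Phe-3-1-/- had little of either. The part of liver RNA in the brain values of Hpd, Tat and Hgd was not tested. Without the 3 libraries, the Hpd difference of tRNA-Phe-3-1-/- was -2.86 (adjusted p = 0.313) and that of tRNA-Phe-1-1-/- went from -1.31 (adjusted p = 0.491) to -2.40 (adjusted p = 0.0994).

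Of the 27 further pathway genes, 22 were tested in the brain. Against WT, 1 was called, Tph2 in tRNA-Phe-1-1-/-, where 1.05% of all genes were called. Its product makes serotonin's precursor with the same cofactor. Tph2 had 61.6, 29.6 and 72.2 normalised counts in WT and 9.17, 17.7 and 11 in tRNA-Phe-1-1-/-. In tRNA-Phe-2-1-/- it had 42.1, 27.9 and 25.8 and in tRNA-Phe-3-1-/- 30.2, 20.9 and 34.6, both overlapping WT. The tRNA-Phe-1-1-/- and WT groups did not overlap, and their difference was -1.98 ± 0.38 (adjusted p = 0.0407). Without the 3 libraries it was -1.79 ± 0.43 and no longer called (adjusted p = 0.0891). Of 4 markers of serotonin neurons, 2 reached the level for a test, and Tph2 itself was the 1 called. The part of regional content in the Tph2 values was not tested. No further tetrahydrobiopterin gene (5 tested), tyrosine degradation gene (6) or catecholamine gene (6) was called against WT in the brain of any line.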

How the data were processed

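RNA from brain and liver was sequenced on an Illumina NovaSeq. By the methods of the study, reads were trimmed by the authors with Trim Galore and cutadapt, checked with FastQC, aligned with STAR to GRCm38.p6 and assigned to GENCODE transcripts with Salmon, strand-aware and corrected for sequence and GC bias. The deposited normalised counts (a signal, estimated reads divided by a DESeq2 size factor per sample, made by the authors for each tissue separately) were used. The 12 deposited comparison tables hold the authors' fold changes and s-values and were not used. All values were whole multiples of a step per column (100%, tolerance 0.001), and division by it gave rounded reads, which served for depth, RPKM and the count tests.

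The log2 values of normalised count + 1 entered limma 3.58.1 (R 4.3.3, trended variance) in each tissue on all 12 samples, for 19228 brain and 15856 liver genes with a mean of at least 10. P-values were two-sided, adjusted after Benjamini and Hochberg for each of the 6 comparisons per tissue, with a threshold of 0.05. On this scale changes of low genes are understated. An exact permutation test of 3 against 3 samples cannot give a p under 0.1. Counts of 0 and their limit of 3 reads cover counting error only. Replicate letters were checked for pairing by the correlation of deviations from the group means. All 3 same-letter pairs exceeded 0.1 (0.132 to 0.492) in the brain between tRNA-Phe-2-1-/- and the tRNA-Phe-3-1-/- line, a pattern in the data that no label states, and in no other comparison. There tRNA-Phe-2-1-/- A with tRNA-Phe-3-1-/- B (0.263) and B with A (0.138) exceeded 0.1 too, so pairing by letter is not shown. The procedure was tested on simulated data with known changes. Genes with close copies are most affected by the division of reads between transcripts, and a size factor assumes few changed genes.

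Alternatives were pseudocounts of 0.1 and 5, a minimum mean of 50 or none, quantile normalisation, limma without the trend, the replicate letter as block, only the 2 groups compared, edgeR 4.0.16 and DESeq2 1.42.0 on the recovered reads, each library left out, and, chosen after seeing the data, 3 brain libraries left out. Named genes were the 9 genes, up to 4 called genes of each pathway list and tissue with the lowest adjusted p, and the 2 genes most correlated with each gene that passed the F-test, among those with a mean of at least 50. The genes and lists were chosen with earlier results of these data known. Symbols came from GENCODE vM39, which named 93.2% of the Ensembl identifiers. Positions and promoter windows came from RefSeq for GRCm38.p6, where all 9 genes matched. Tables and figures were made with Python 3.11.15, pandas 2.3.3, scipy 1.17.1 and matplotlib 3.10.9. A gene of the same pathway and a gene chosen by this rule are not reported here.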

Additional observations from a re-analysis of the deposited data

How the results depend on the processing

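The alternatives gave 824 values of the 9 genes, taken from comparisons where some setting called the gene or its groups did not overlap. Of these, 763 kept their direction and their side of the threshold, 49 lost the call, 12 gained it and none reversed. Values picked in this way can hardly reverse, so the lack of reversals carries no weight. Counts of called genes moved as follows. In the liver of tRNA-Phe-1-1-/- against WT, 4 became 2 (Qdpr, Ddc) with quantile normalisation or with only the 2 groups fitted, and 2 to 4 with a library left out. For tRNA-Phe-2-1-/- against WT, 0 became 1 (Tat) with only the 2 groups fitted and 2 (Qdpr, Tat) with DESeq2. For tRNA-Phe-3-1-/- against WT, 0 became 1 (Ddc) with DESeq2, and 0 to 1 with a library left out. For tRNA-Phe-1-1-/- set against the tRNA-Phe-3-1-/- line, 5 became 1 with quantile normalisation (Tat) or only the 2 groups (Gch1), 2 without the variance trend, 7 with DESeq2, and 1 to 5 with a library left out. The F-test count of 3 became 6 with DESeq2, and 3 to 5 with a library left out (5 without WT replicate A). In the brain, DESeq2 called 1 gene in place of 0 for any genotype (Th), tRNA-Phe-1-1-/- against WT (Qdpr), tRNA-Phe-3-1-/- against WT (Th) and the comparison of tRNA-Phe-2-1-/- with the tRNA-Phe-3-1-/- line (Th). The cause of these moves was not tested. The liver difference of Ddc between tRNA-Phe-1-1-/- and WT ranged from -1.51 to -1.07 (highest adjusted p 0.0128) and that of Qdpr from -0.79 to -0.64 (0.0125). Over the 22 alternative settings, with limma, edgeR or DESeq2, the adjusted p ranged from 0.0031 to 0.0928 for Pcbd1 and from 0.0081 to 0.135 for Hgd. Both upper ends came from limma with a library left out.

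Of the pairs of samples with the same letter, 7 of 18 in the brain and 3 of 18 in the liver had a correlation over 0.1. All 3 pairs of a comparison did so in the brain between tRNA-Phe-2-1-/- and the tRNA-Phe-3-1-/- line, where the block left the count at 0, and in no other comparison. Pairs of unlike letters, A with B and B with A, exceeded 0.1 between these lines too. With the letter as a replicate block, the liver of tRNA-Phe-1-1-/- kept a count of 4 against WT and had 4 in place of 5 against tRNA-Phe-3-1-/-, where Ddc had an adjusted p of 0.052, and the brain counts stayed at 0. Depth limits Tat, Hpd and Hgd in the brain and Th in the liver.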
